A study of Caenorhabditis elegans with 2 samples.

Results

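The genes described are the 33 protein-coding genes of Caenorhabditis elegans whose names start with pas-, pbs-, rpn- or rpt-, which encode subunits of the proteasome, among 19973 protein-coding genes on the nuclear chromosomes. A subunit gene with another name, such as dss-1 of the lid, is not included. Membership follows from the gene name, though the set itself was picked for description with earlier results of these data known. The genes comprise 14 genes of the core particle (7 pas and 7 pbs genes) and 19 of the regulatory particle (6 rpt and 13 rpn genes). Binding of LIR-3, a protein of the lin-26 family, was mapped by ChIP-seq (immunoprecipitation of chromatin, then sequencing of its DNA) in 1 group with 2 biological replicates. Each replicate was a preparation of whole hermaphrodite L1 larvae of strain OP312, genotype unc-119(ed3) III; wgIs312, hatched without food after bleaching and collected 6 h after synchronization. The strain carries an integrated lir-3 transgene with a C-terminal GFP-FLAG tag, and sonicated chromatin was precipitated with an antibody against GFP. All larvae shared this genotype, so the lists hold no untagged or untreated group, and no test between groups was possible. Which promoter drives the transgene was not given in the sources used here, and whole larvae mix all cell types of the animal.

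The proteasome is the protease that degrades proteins marked with ubiquitin. Its core particle is a barrel of stacked rings, with alpha subunits forming the outer rings and the gate, and beta subunits forming the inner rings that hold the proteolytic sites. The regulatory particle caps the barrel, and its base of ATPases and scaffold subunits unfolds substrates while its lid removes ubiquitin. In C. elegans the transcription factor SKN-1 is known to raise the expression of many of these genes when the proteasome is impaired.

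LIR-3 peaks lay near the 5' ends of 11 of the 33 proteasome genes (33.3%, exact Clopper-Pearson 95% interval 18% to 51.8%), against 6.09% of all protein-coding genes (1216 of 19973) and 6.04% of those outside the proteasome (interval 5.72% to 6.38%). A gene counts as having a peak when the summit of a peak in the authors' optimal IDR set lies within 500 bp of its annotated 5' end. IDR is a step that compares the ranks of regions between replicates. At these 11 genes each peak had the same rank in the IDR set as in the authors' list from both replicates pooled. Presence in the set thus does not mean a high rank in each replicate. The genes with a peak were pas-3, pas-4, pbs-1, pbs-3, pbs-7, rpt-2, rpn-2, rpn-3, rpn-5, rpn-9 and rpn-11, which belong to every layer of the complex. The core particle had a peak at 5 of 14 genes (35.7%, interval 12.8% to 64.9%) and the regulatory particle at 6 of 19 (31.6%, interval 12.6% to 56.6%). Within these, a peak was found at 2 of 7 alpha ring genes, 3 of 7 beta ring genes, 1 of 6 base ATPase genes, 1 of 4 further base genes and 4 of 9 lid genes, and the intervals of these 5 shares all overlap. The intervals cover counting error over genes only, neighbouring genes can share a summit, and read depth is unknown because the files list peaks and no reads.

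**Figure D1:**
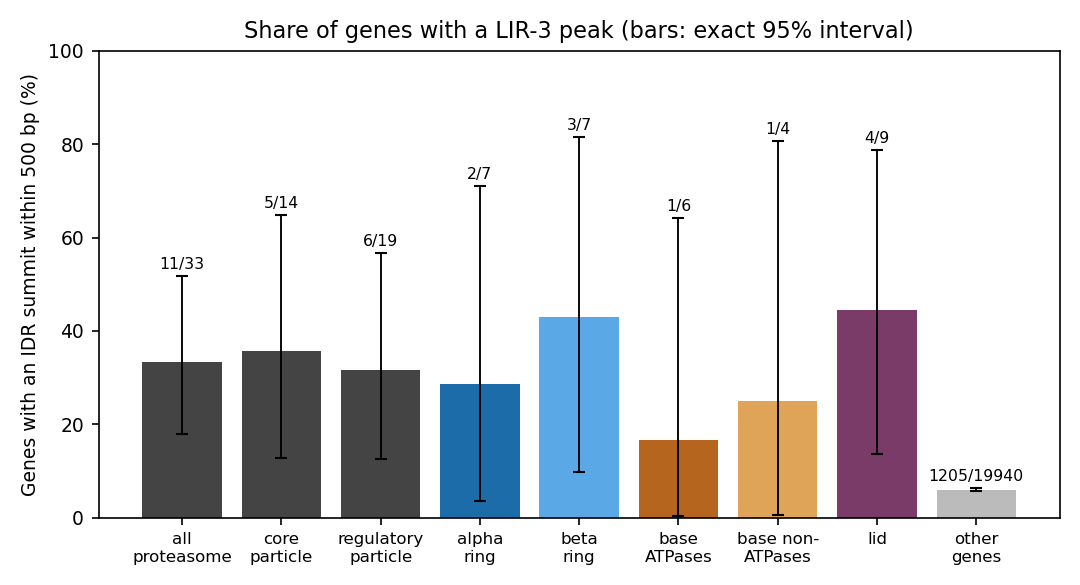
Share of genes (%, vertical axis) with an IDR summit within 500 bp of the 5' end for all proteasome genes, the 2 particles, the 5 subgroups and all other protein-coding genes. Vertical lines are exact 95% intervals over genes and the numbers above are genes with a summit of all genes. Every proteasome bar is above the 6.04% of the other genes, and the intervals of the smallest subgroups, such as the base ATPases (0.421% to 64.1%), reach below it.

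The genomic sequence under 6 of these summits is printed because it is the DNA the results rest on. Windows stop where a protein-coding gene begins, and those of pas-3, pas-4, pbs-3, pbs-7 and rpn-2 are not printed. All are on ce11, read from the RefSeq genome of the same build (WBcel235), and written 5' to 3' in the direction of the proteasome gene, with the summit at base 101. They are rpn-3 (chrIII:8447080-8447280, plus strand), rpn-11 (chrII:4044547-4044698, minus), rpn-9 (chrII:11239075-11239275, minus), rpn-5 (chrII:4698428-4698598, minus), rpt-2 (chrV:6017705-6017905, minus) and pbs-1 (chrIV:1709803-1710003, minus). Those of rpn-11 and rpn-5 end at the last base before the gene. Capitals mark GTCAT and ATCAT, the short cores of sites known for SKN-1, on either strand, so that ATGAC and ATGAT are their reverse complements.
rpn-3: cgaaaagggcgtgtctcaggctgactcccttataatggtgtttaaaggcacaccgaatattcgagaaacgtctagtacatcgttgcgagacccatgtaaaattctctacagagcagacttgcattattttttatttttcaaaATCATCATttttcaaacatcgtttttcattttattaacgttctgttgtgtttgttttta
rpn-11: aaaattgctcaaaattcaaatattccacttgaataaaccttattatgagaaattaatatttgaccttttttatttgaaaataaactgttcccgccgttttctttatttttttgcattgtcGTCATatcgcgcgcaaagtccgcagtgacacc
rpn-9: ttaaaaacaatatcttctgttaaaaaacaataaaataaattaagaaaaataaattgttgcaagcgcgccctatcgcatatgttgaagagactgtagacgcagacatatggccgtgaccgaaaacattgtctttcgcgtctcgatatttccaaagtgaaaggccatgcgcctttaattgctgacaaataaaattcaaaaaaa
rpn-5: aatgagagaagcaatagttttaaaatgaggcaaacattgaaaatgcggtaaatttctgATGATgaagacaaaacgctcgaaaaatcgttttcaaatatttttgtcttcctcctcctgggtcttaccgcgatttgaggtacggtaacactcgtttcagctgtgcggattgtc
rpt-2: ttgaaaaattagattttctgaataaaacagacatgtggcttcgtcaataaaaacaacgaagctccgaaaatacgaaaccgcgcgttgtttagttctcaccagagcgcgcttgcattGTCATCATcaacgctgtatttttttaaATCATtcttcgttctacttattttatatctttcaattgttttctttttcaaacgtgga
pbs-1: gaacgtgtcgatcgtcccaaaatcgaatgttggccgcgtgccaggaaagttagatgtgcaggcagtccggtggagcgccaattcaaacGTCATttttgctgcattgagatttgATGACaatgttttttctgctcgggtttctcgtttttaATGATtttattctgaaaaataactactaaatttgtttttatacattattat

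Matches to these cores were read over 100 bp to either side of each summit, with overlapping matches allowed (GTCATCAT holds both). GTCAT occurred in 6 of the 11 proteasome summit windows (54.5%), against 23.4% of the 947 summit windows of protein-coding genes. ATCAT also occurred in 6 of 11 (54.5%), against 27.6%. The rpn-9 window held neither, and the rpt-2 window held 1 GTCAT and 2 ATCAT. The same search in the 300 bases around the 5' end (250 before, 50 after) found GTCAT at 19 of 33 proteasome genes (57.6%), against 39.5% of all protein-coding genes, with 7 of the 11 genes with a peak and 12 of the 22 without. ATCAT was found at 19 of 33 (57.6%) against 55.6%. Matches to such short words are a description, and no binding of SKN-1 was measured here.

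Of the other words searched on both strands in the summit windows, AGAAAA was present in 9 of 11 proteasome windows (81.8%) against 58.4% of those of protein-coding genes. The TATA box word TATAAA was present in 4 of 11 (36.4%) against 19%. The heat shock element core GAANNTTC, the GC box GGGCGG and the E2F-like word GCGCGAAA were each present in 1 of 11 windows (9.09%), against 10.3%, 10.5% and 3.59% of windows of protein-coding genes. Around the 5' ends of all 33 genes the shares were 66.7% against 70.4% for AGAAAA, 30.3% against 37.9% for TATAAA, 15.2% against 18.5% for GAANNTTC, 6.06% against 7.83% for GGGCGG and 3.03% against 1.14% for GCGCGAAA. The base composition of the windows differed in the same data: the proteasome summit windows had a median GC content of 35.3%, against 39.8% for summit windows of protein-coding genes, and its part in the shares of these AT-rich words was not tested. Around the 5' ends the medians were 34.3% for proteasome genes and 34.3% for all protein-coding genes.

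In the outer ring of the core particle, pas-3 and pas-4 had peaks. The peak of pas-3 (WBGene00003924, chromosome I, 5105110 to 5106048, minus strand) spanned 5106104 to 5106262, with its summit at 5106186, 138 bp upstream of the 5' end. It had a score of 307 and was number 402 by score among the 1894 nuclear IDR peaks, where the score is the authors' signal value, has no stated unit and is used only to order regions within 1 list. In the lists of the single replicates, which hold 29982 and 29983 nuclear regions from before the IDR threshold, it scored 160.5 in replicate 1 (number 385) and 151.5 in replicate 2 (number 469). Both replicates thus placed it near the top of their lists.

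The peak of pas-4 (WBGene00003925, chromosome I, 8727218 to 8728487, minus strand) spanned 8728465 to 8728800, with its summit at 8728633, at -146 bp. It scored 162 (number 921), with 73.3 in replicate 1 (number 1098) and 106 in replicate 2 (number 790). Both replicate regions were among the strongest 1894 of their list.

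The other alpha ring genes had no IDR summit in the window. A region at pas-5 came nearest, number 2587 of the pooled list, which holds 29984 nuclear regions called on both replicates together (score 73.2, at -433 bp). It was number 1849 in replicate 2, at -450 bp, while replicate 1 had only number 21761, on the other side of the 5' end at +126 bp. Thus 1 replicate carries that region. Lower in the pooled list stood pas-1 (number 7471) and pas-2 (number 17320), pas-7 had a region only in replicate 1 (number 21259), and pas-6 had none in any list.

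Among the beta ring genes, whose products line the proteolytic chamber, pbs-1, pbs-3 and pbs-7 had peaks. The pbs-1 peak (WBGene00003947, chromosome IV, 1708814 to 1709745, minus strand) spanned 1709735 to 1710070, with its summit at 1709903, at -158 bp. It scored 168 (number 874), with 102 in replicate 1 (number 732) and 76.8 in replicate 2 (number 1169). For pbs-3 (WBGene00003949, chromosome II, 4954480 to 4955427, minus strand) the peak spanned 4955443 to 4955778 and the summit was at 4955611, at -184 bp. That position lies in the 3' UTR of ulp-2, the gene just upstream on the same strand, and was the only 1 of the 11 summits inside a protein-coding gene. It scored 169.9 (number 867), with 67.0 in replicate 1 (number 1222) and 102 in replicate 2 (number 834).

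The pbs-7 peak (WBGene00003953, chromosome I, 8695205 to 8696301, minus strand) spanned 8696255 to 8696590, with its summit at 8696423, at -122 bp, and was among the weakest of the IDR set (score 91.1, number 1860). It scored 27.3 in replicate 1 (number 5042) and 49.9 in replicate 2 (number 2051), so neither replicate placed it among its strongest 1894 regions. Of the beta genes without an IDR summit, pbs-4 (number 4047 of the pooled list, at +283 bp) and pbs-6 (number 7050) had regions in all 3 lists from before the threshold. No list had a region within 500 bp of pbs-2 or of pbs-5, whose product carries the chymotrypsin-like site.

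In the base of the regulatory particle, 1 of the 6 ATPase genes, whose products form the unfolding ring, had a peak. The rpt-2 peak (WBGene00004502, chromosome V, 6016059 to 6017669, minus strand) spanned 6017637 to 6017972, with its summit at 6017805, at -136 bp. It scored 178 (number 824), with 89.9 in replicate 1 (number 866) and 101 in replicate 2 (number 847), the closest ranks of any of the 11 genes. The other ATPase genes were spread over the lists. A region at rpt-1 was number 7691 of the pooled list and stood in both replicates, rpt-5 had only number 27378 of the pooled list, and rpt-3 had no region. Replicate 1 alone held regions at rpt-4 (number 12150) and rpt-6 (number 1937, score 46.2, at -243 bp), the second of them close behind the strongest 1894 of that list and with no counterpart in replicate 2 or the pooled list.

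The further base genes are rpn-1 and rpn-2, which encode the large scaffold subunits, and rpn-10 and rpn-13, which encode ubiquitin receptors. The rpn-2 peak (WBGene00004459, chromosome III, 6199184 to 6202594, plus strand) spanned 6198651 to 6198986, with its summit at 6198819, at -365 bp, the farthest of the 11. It scored 90.6 (number 1870), with 63.4 in replicate 1 (number 1302) and 35.7 in replicate 2 (number 3565), so only replicate 1 had it among its strongest 1894. Just below the IDR set stood rpn-13, number 1981 of the pooled list (score 87.4, at -337 bp), with 55.7 in replicate 2 (number 1782) and 23.8 in replicate 1 (number 7085). Regions at rpn-10 and rpn-1 were number 5504 and number 9534 of the pooled list, and rpn-10 had none in replicate 1. All 4 of these genes thus had a pooled region, though 1 had an IDR summit.

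The lid held the strongest peaks of the proteasome genes. At rpn-3 (WBGene00004460, chromosome III, 8447353 to 8449346, plus strand), a scaffold subunit of the lid with a PCI domain, the peak spanned 8447087 to 8447233 and the summit was at 8447180, at -173 bp. It scored 366 (number 321), with 216 in replicate 1 (number 245) and 183 in replicate 2 (number 373). At rpn-11 (WBGene00004467, chromosome II, 4043055 to 4044546, minus strand), the metalloprotease that cuts ubiquitin from substrates, the peak spanned 4044430 to 4044765 and the summit was at 4044598, at -52 bp, the nearest of the 11 to a 5' end. It scored 342 (number 351), with 145 in replicate 1 (number 441) and 171 in replicate 2 (number 408).

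The other lid genes with a peak encode PCI-domain subunits too. The rpn-9 peak (WBGene00004465, chromosome II, 11237447 to 11238919, minus strand) spanned 11239007 to 11239342, with its summit at 11239175, at -256 bp, and scored 221 (number 628), with 121 in replicate 1 (number 568) and 104 in replicate 2 (number 806). The rpn-5 peak (WBGene00004461, chromosome II, 4696418 to 4698427, minus strand) spanned 4698330 to 4698665, with its summit at 4698498, at -71 bp, and scored 216 (number 639), with 119.8 in replicate 1 (number 575) and 114 in replicate 2 (number 727). All 4 lid peaks were among the strongest 1894 regions of both replicates. Among the lid genes without an IDR summit, rpn-7 had a region below the strongest 1894 in each list from before the threshold. It was number 2492 of the pooled list (score 74.8, at -353 bp), number 2837 in replicate 1 (36.0) and number 2894 in replicate 2 (39.8). A region at rpn-12 was number 6369 of the pooled list and number 2255 in replicate 2. Weaker still were rpn-6.1, whose raised expression is known in worms to increase proteasome activity (number 21980 of the pooled list), and rpn-8 (number 27726, replicate 1 only). The paralogue rpn-6.2 had no region in any list.

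**Figure D2:**
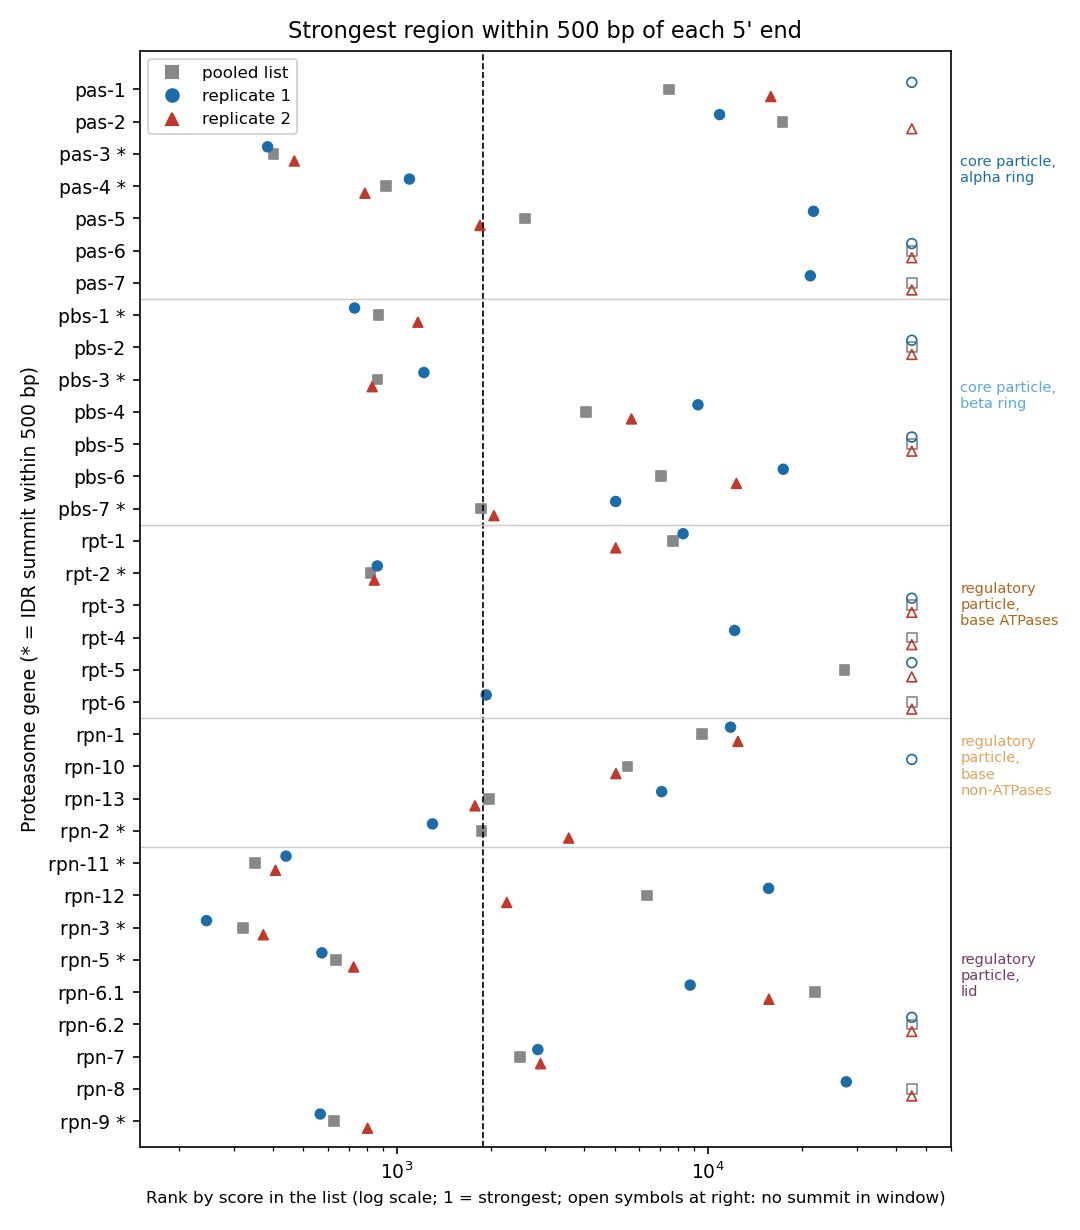
Rank by score (horizontal, log scale, 1 is strongest) of the strongest region with its summit within 500 bp of each proteasome gene's 5' end, in the pooled list (squares), replicate 1 (circles) and replicate 2 (triangles), with open symbols at the right where a list has none. Asterisks mark the 11 genes with an IDR summit, the dashed line is at rank 1894, and rpn-3, rpn-11 and pas-3 sit furthest left while pas-6, pbs-2, pbs-5, rpt-3 and rpn-6.2 have open symbols only.

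Peaks at proteasome genes were of ordinary strength. Their scores ran from 90.6 to 366 with a median of 178, against a median of 193 (quartiles 127 and 351) for the 1216 protein-coding genes with a summit, and 5 of the 11 lay above that median. The strongest nuclear IDR peak scored 2614. At the threshold itself, pbs-7 (91.1) and rpn-2 (90.6) were just inside the IDR set, whose lowest nuclear score was 89.9, and rpn-13 (87.4) was just outside. The −log10 q-value of the authors was at its ceiling of 2.01 for 9 of the 11 peaks, as it was for 1458 of the 1894 nuclear IDR peaks, and was lower, at 1.75, for pbs-7 and for rpn-2.

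The replicates placed these peaks in much the same order and position. Spearman's rho between the ranks in replicate 1 and replicate 2 was 0.85 over the 11 proteasome genes, and 0.85 over the 1178 protein-coding genes with an IDR summit and a region in both replicates. Both values are descriptions across genes. The IDR step behind the set itself compares ranks between replicates, so they are no independent measure of agreement. Both replicates had the region among their strongest 1894 for 9 of the 11 genes (81.8%), against 941 of the 1216 protein-coding genes with a summit (77.4%). The exceptions were pbs-7 and rpn-2. The summits called in replicate 1 and replicate 2 lay 4 to 49 bp apart, with a median of 14 bp.

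Many of the other 22 proteasome genes had regions in the lists from before the threshold, which include background. The pooled list had a summit within 500 bp of 24 of the 33 genes (72.7%), against 35.3% of all protein-coding genes. Replicate 1 had one at 25 of 33 (75.8%) against 35.4%, and replicate 2 at 22 of 33 (66.7%) against 35.4%. No list had one at 5 proteasome genes (15.2%), against 9392 protein-coding genes (47.0%). Among the 22 genes without an IDR summit, 9 had a region in all 3 of these lists (pas-5, pbs-4, pbs-6, rpt-1, rpn-1, rpn-13, rpn-12, rpn-6.1 and rpn-7). The matching share over all protein-coding genes was not computed, so whether 9 of 22 is high or low is not known. The summits of their strongest regions in replicate 1 and replicate 2 lay 25 bp (rpn-13) to 576 bp (pas-5) apart, with a median of 110 bp, so presence in both lists does not mean 1 shared position. Weaker regions in the window were left out of these distances, and some lay closer. At rpn-1, for example, replicate 1 also had a region at -305 bp, against -414 bp in replicate 2.

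All 11 IDR summits lay upstream of the proteasome gene, as did 92.8% of those of protein-coding genes with a summit. The median position was -146 bp, against -187.5 bp for protein-coding genes with a summit (quartiles -286 and -107). Each gene had 1 IDR summit in its window, and the peaks were 147 to 336 bp wide. Within 200 bp of the 5' end there was a summit at 9 of 33 proteasome genes (27.3%), against 3.1% of all protein-coding genes. Between 400 and 750 bp no further gene was added. Out to 1500 bp the count reached 16 of 33 (48.5%), against 9.65%.

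**Figure D3:**
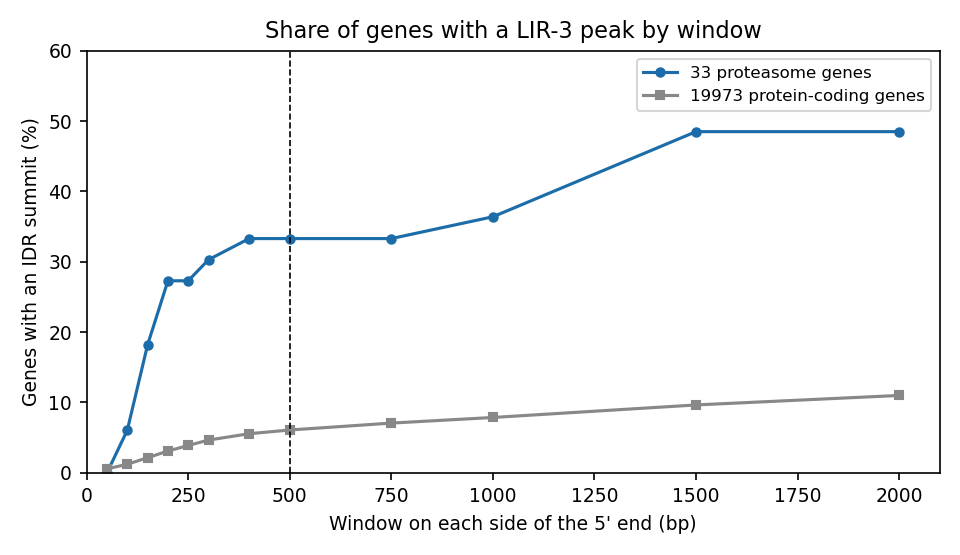
Share of genes (%, vertical axis) with an IDR summit within a given distance of the 5' end (bp, horizontal axis) for 33 proteasome genes (circles) and 19973 protein-coding genes (squares). The proteasome line climbs to 27.3% by 200 bp and is level at 33.3% from 400 to 750 bp, and the dashed line marks 500 bp.

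The summits gained at longer distance lay next to other genes. The nearest IDR summit to pas-1 was 910 bp upstream (score 225, number 612), and 224 bp upstream of the 5' end of rpoa-12, the gene that lies directly upstream of pas-1 on the same strand. That of pbs-5 was 1170 bp upstream (229.8, number 597), inside an intron of K05C4.2, the upstream gene on the same strand. The nearest summits to pas-5 (1159 bp upstream), rpt-6 (1289 bp upstream) and pbs-2 (1346 bp downstream) lay 75 bp upstream of the snoRNA gene F25H2.15, 117 bp upstream of the histone gene his-72 and 139 bp upstream of the tubulin gene tba-2. The summit nearest to rpt-4 was 2370 bp inside the gene, in an intron, 61 bp upstream of nfyc-1 and 184 bp upstream of the start of a shorter annotated transcript of rpt-4. For rpn-7, at the other extreme, the nearest was 99983 bp upstream.

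Most of the 11 summits were shared with a neighbouring gene. In 9 of 11 (81.8%) the summit was also within 500 bp of the 5' end of another protein-coding gene, always on the opposite strand, against 532 of the 1216 protein-coding genes with a summit (43.8%). The neighbours were use-1 (vesicle transport) beside pas-3, rpb-3 (an RNA polymerase subunit) beside pas-4, K08D12.3 beside pbs-1, F39H11.1 beside pbs-7, aps-1 (an adaptor subunit of clathrin coats) beside rpt-2, C23G10.7 beside rpn-2, the chaperone gene hsp-110 beside rpn-3, the cohesin gene scc-1 beside rpn-5 and T06D8.9 beside rpn-9. The 5' ends of these pairs were 156 bp (pas-3 and use-1) to 770 bp (rpn-2 and C23G10.7) apart. At pas-3 the summit lay 18 bp from the 5' end of use-1, and at rpn-3 it lay 271 bp from that of hsp-110. Non-coding RNA genes also had the summit in their window at pas-4 (C36B1.16), rpt-2 (F29G9.10) and rpn-3 (C30C11.14). When every gene but piRNA genes could claim a summit, the proteasome gene was the nearest in 7 of 11, all but pas-3, pas-4, rpt-2 and rpn-3. At rpt-2 and rpn-3 only the non-coding RNA gene was nearer, at 46 and 85 bp from the summit. There the proteasome gene (136 and 173 bp) was nearer than aps-1 (165 bp) and hsp-110 (271 bp). At pas-3 and pas-4 the protein-coding neighbour was nearer. Which gene of a pair LIR-3 regulates, if either, was not measured.

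**Figure D4:**
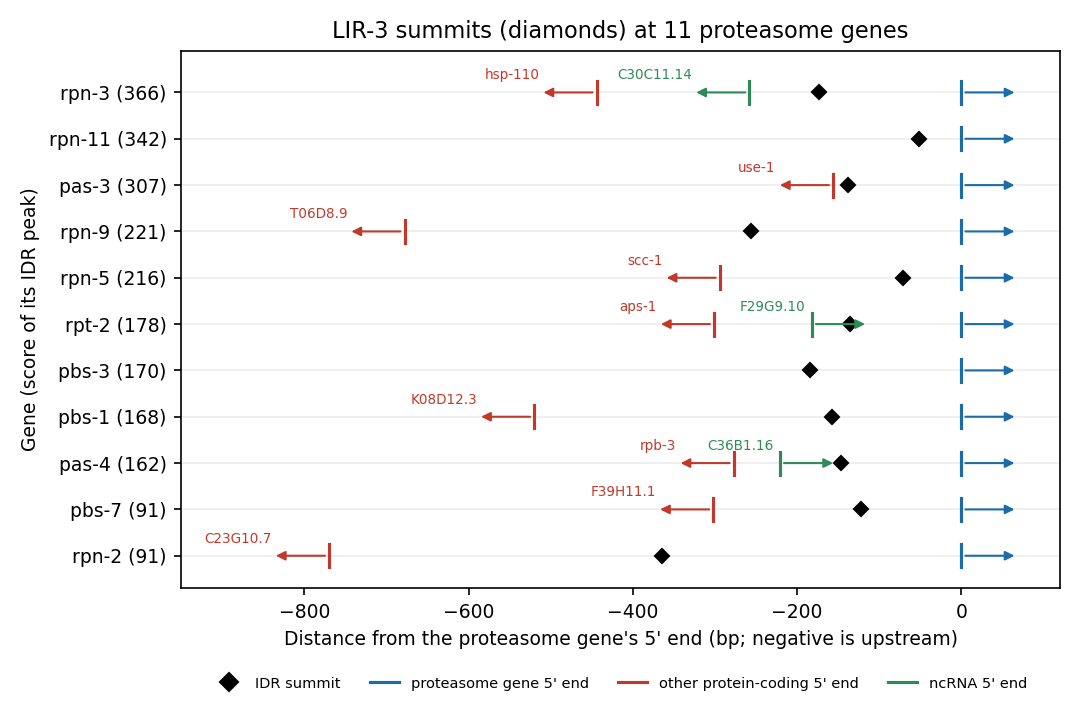
Position of the IDR summit (diamonds) relative to the 5' end of each of the 11 proteasome genes (blue, bp, transcription to the right), in order of peak score (in brackets), with 5' ends of other protein-coding genes (red) and of non-coding RNA genes (green) whose window holds the summit. The summits lie 52 to 365 bp upstream, and rpn-11 and pbs-3 have no such neighbour.

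Gene arrangement was compared over all 33 genes, with classes chosen after these neighbours were seen. A gene was called divergent when a protein-coding gene on the opposite strand started within 1000 bp upstream, and tandem when instead one on the same strand ended within 500 bp upstream. Divergent were 21 of 33 proteasome genes (63.6%), against 17.7% of all protein-coding genes. Of these, 9 of 21 had an IDR summit (42.9%, interval 21.8% to 66.0%), against 16.5% of the 3539 divergent protein-coding genes. Tandem were 7 proteasome genes (21.2%) against 17.9%, and 2 of 7 had a summit (28.6%, interval 3.67% to 71.0%), against 4.42%. In the remaining class, 0 of 5 proteasome genes had one, which by the exact interval allows a share of up to 52.2%, against 3.68%. Among all protein-coding genes the divergent class thus had the highest share. The share at divergent proteasome genes was above that of divergent genes at large. A summit between divergent genes can lie within 500 bp of both 5' ends and is then counted for both genes. This counting can raise the share of the divergent class, and by how much was not tested. The split was not repeated with each summit given only to its nearest gene, a setting that left 7 proteasome genes with a summit.

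A close divergent neighbour did not always come with a peak. The 12 divergent proteasome genes without one include rpn-6.1, 89 bp from F57B9.1, and pas-2, 151 bp from D1054.1, the shortest distances among the 21 divergent proteasome genes. They also include rpn-12, 395 bp from rad-23, which encodes a shuttle factor that brings ubiquitinated proteins to the proteasome, and pbs-2, 666 bp from the translation factor gene eif-6. The tandem genes with a peak were rpn-11, 225 bp downstream of K07D4.2, and pbs-3, 23 bp downstream of ulp-2, while pas-1, pbs-5, rpt-3, rpn-10 and rpn-13 had none.

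**Figure D5:**
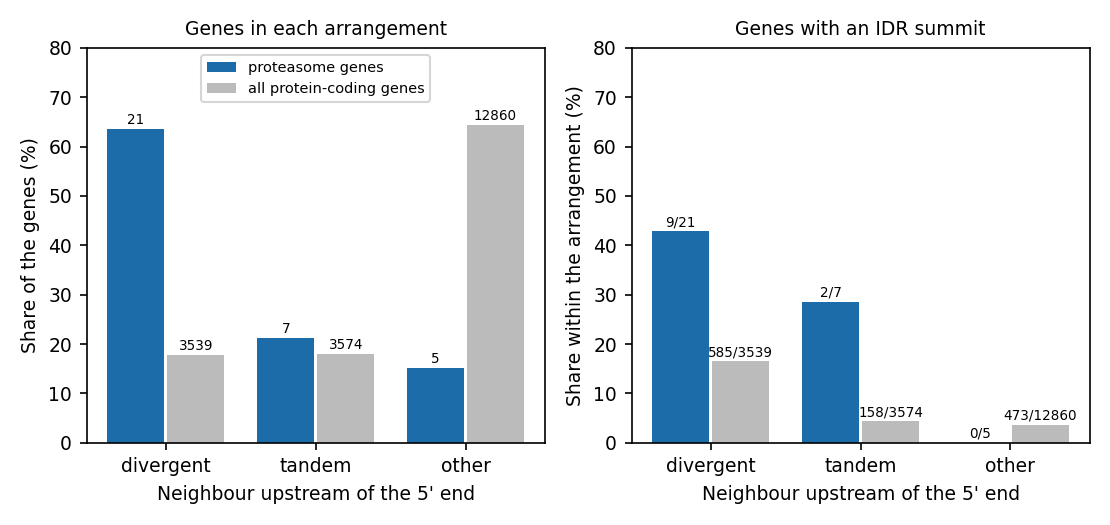
Left, share (%) of the 33 proteasome genes (blue) and of all 19973 protein-coding genes (grey) in each arrangement with the upstream neighbour. Right, share within each arrangement that has an IDR summit, with counts above the bars; divergent genes stand at 42.9% for the proteasome and 16.5% for all genes.

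By chromosome, 3 of 10 proteasome genes on chromosome I, 4 of 7 on II, 2 of 8 on III, 1 of 3 on IV and 1 of 5 on V had an IDR summit, and none of the genes is on X. The share of all protein-coding genes with one was 8.58% on I, 6.73% on II, 9.24% on III, 5.36% on IV, 4.06% on V and 4.17% on X.

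The count of 11 changed little with most settings. A window of 250 bp left 9 genes, without rpn-2 and rpn-9, against 3.89% of all protein-coding genes, and a window of 1000 bp added pas-1 (12 genes against 7.87%). Counting from the 5' end of any annotated transcript added rpt-4 (12 against 6.41%), and counting any base of a peak in the window kept the same 11 (against 6.72%). The 947 strongest IDR peaks left 9 genes against 3.71%, and peaks inside a strong region of both replicates left 9 against 4.73%, without pbs-7 and rpn-2 in either case. The strongest 1894 regions of replicate 2 alone gave 11 genes (6.03% of all genes), with pas-5 and rpn-13 gained and pbs-7 and rpn-2 lost. Those of replicate 1 alone gave 10 genes (6.33%), without pbs-7. Those of the pooled list gave the same 11 genes and the same 6.09% as the IDR set. Peaks at these genes have the same rank in the 2 lists, so this setting repeats the main count and is no separate check. Giving each summit only to its nearest gene, non-coding RNA genes included, left 7 proteasome genes (21.2%), against 4.22% of all genes, and this setting moved the count most.

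Other genes of the ubiquitin and proteasome pathway, and relatives of the proteasome subunits, were counted in the same way against the same 6.09%. Of 24 genes for proteasome regulators and shuttle factors, 6 had an IDR summit (25%, interval 9.77% to 46.7%). Among them, cdc-48.1, encoding the segregase that extracts ubiquitinated proteins, had one of score 1341 at -151 bp, and ufd-3, encoding a cofactor of it, one of 1072 at -132 bp. Both scores exceed the 366 of rpn-3, the highest among the subunit genes. The others were ecps-1 (785), the deubiquitinase genes ubh-4 (323) and usp-14 (95.4), and the ubiquitin ligase gene ufd-2 (228). The regulator gene skn-1 was on this list and had none in its window. The lid subunit gene dss-1, which the name rule leaves out, was placed on this list too and was not among the 6.

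Of 25 genes for ubiquitin-conjugating enzymes and their relatives, 6 had a summit (24.0%, interval 9.36% to 45.1%), with ubc-6 (241), ubc-7 (230) and ubc-25 (229) the strongest. The 6 include ubc-9, whose product conjugates SUMO and not ubiquitin. Of 13 genes for ubiquitin, its relatives and their activating enzymes, 3 had one (23.1%, interval 5.04% to 53.8%), namely ufm-1 (329), ubq-1 (148, downstream of the 5' end at +382 bp) and rfl-1 (107). The lid shares its PCI and MPN domains with the COP9 signalosome and the translation factor eIF3. Of 7 COP9 signalosome genes none had a summit, which by the exact interval allows a share of up to 41.0%, while 5 of 11 eIF3 genes had one (45.5%, interval 16.7% to 76.6%), among them eif-3.B (1333) and eif-3.E (538). The eIF3 list took subunits of the whole complex, and some of them, such as eif-3.B, have neither domain. Of 10 listed genes, mainly for AAA ATPases outside the proteasome, 3 had one (30.0%, interval 6.67% to 65.2%), namely nsf-1 (386), vps-4 (278) and spas-1 (216), against 1 of 6 rpt genes. This list is partial. The AAA ATPase genes named cdc-48, of which only cdc-48.1 had a summit, were counted with the regulators. The symbols searched also included the peptidase gene clpp-1. The intervals of these small lists overlap those of the proteasome genes.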

How the data were processed

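LIR-3 ChIP-seq peak lists on ce11 were used for replicate 1, replicate 2, both replicates pooled, and the optimal IDR set; lists on ce10 were not used. Each deposited list gives the authors' score, which is their signal value with no unit stated, and the authors' −log10 q-value for each region. Neither the caller and aligner nor the threshold of the IDR step is given in the sources used here, and the control experiment named by the labels was not analysed here. Read depth is unknown. All columns of the lists matched a sample or the pooled group.

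Regions and genes on nuclear chromosomes were kept, with genes from Ensembl release 115 (WBcel235, the build of ce11) and gene products from RefSeq. For each gene and list the highest-scoring region with its summit within 500 bp of the 5' end was taken. Ranks are by score within a list. Shares have exact Clopper-Pearson 95% intervals. There is 1 group, so no test between samples was made, and genes are not replicates. Python 3.11.15 with numpy 2.4.6, scipy 1.17.1, pandas 2.3.3 and matplotlib 3.10.9 was used, and the window search was tested on simulated data.

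The members, gene lists, motifs and settings were chosen with earlier results of these data known, and the arrangement classes after the values were seen. Named in full are genes with an IDR summit and those with a pooled region among the strongest 3788, which adds pas-5, rpn-7 and rpn-13; other genes are given more briefly, and some, such as rpt-6, pas-1 and rpn-6.1, were singled out after their values were seen.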

Additional observations from a re-analysis of the deposited data

How the results depend on the processing

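No paired analysis was possible because the series has 1 group, so no groups share replicate numbers. Of the recomputed values, 37 kept their direction and stayed within 1.5 times the main count or within the spread of the main value, and 3 moved. The 37 include counts from the strongest regions of the pooled list, which repeat those of the IDR set and are no separate check. Giving each summit to the nearest gene only left 7 proteasome genes with an IDR summit, against 11 in the 500 bp window, and 3 core particle genes against 5. The median rank of the 33 genes in the pooled list, with genes without a region placed after the last, was 6369 with 500 bp and 29985 with 250 bp, which by construction means that the median gene had no region in the shorter window. With 1 replicate left out, the count ran from 10 to 11 for all genes, 4 to 5 for the core particle and 6 to 6 for the regulatory particle, and the median rank from 5054 to 9265. The median score was 177.8 to 197.1 and the median position -152 to -146 bp over their settings. Depth is unknown, so a gene without a region is not shown to lack binding, and 4 to 19 genes in a subgroup leave wide intervals.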
